A study of Homo sapiens with 7 samples.

Results

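RET, its 4 co-receptors GFRA1, GFRA2, GFRA3 and GFRA4 and the ligands GDNF and NRTN were examined in 7 lists of accessible chromatin regions, as 7 of 19974 protein-coding genes. A region was assigned to a gene when it overlapped the gene body or the 50 kb on either side of it, here called the window, on hg38. The 7 genes were chosen by the presence, width and within-library rank of their regions in treated against vehicle libraries, with those values already known. The comparison of treatments is therefore a description for them and carries no test. The assay was ATAC-seq, which uses the transposase Tn5 to insert sequencing adapters where chromatin is open. The cells were LUHMES, an established line from human mesencephalon, of wild-type genotype and differentiated for 6 days into cells labelled dopaminergic neurons. Stressed cells received antimycin A at 25 µM, which blocks respiratory complex III, with oligomycin at 10 µM, which blocks the mitochondrial ATP synthase, for 8 hours (4 libraries, differentiations 6, 7, 8 and 9). Vehicle cells received DMSO (3 libraries, differentiations 6, 7 and 8). All of them, vehicle cells included, were differentiated in medium with GDNF at 2 ng/mL, dibutyryl cAMP at 1 mM and tetracycline at 1 µg/mL, so no library lacks the RET ligand. Libraries are named below by treatment and differentiation, as in stressed 6. All come from 1 cell line.

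RET is a receptor tyrosine kinase that does not bind its ligands alone. A ligand of the GDNF family first binds a GFRA co-receptor held in the membrane by a lipid anchor, and the complex brings RET molecules together, which then phosphorylate each other and recruit adaptors. GFRA1 prefers GDNF, GFRA2 prefers neurturin (the product of NRTN), GFRA3 prefers artemin and GFRA4 prefers persephin. In the midbrain this pathway is known for supporting the survival and the fibres of dopaminergic neurons.

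The DNA before 4 starts of the genes with a region at a start in every library is printed below, since the position of the region relative to the start differed between them, with GFRA3 as the contrast whose start held a region in 1 library only. Each line holds the 250 bases before the start, 5′ to 3′ along the gene, from RefSeq on GRCh38.p14. These lie at chr10:43076819-43077068 (RET, outer start), chr10:43104515-43104764 (RET, inner start), chr10:116274706-116274955 (GFRA1, outer start, minus strand), chr5:37840042-37840291 (GDNF, outer start, minus strand) and chr5:138274622-138274871 (GFRA3, minus strand). Capitals mark GC boxes (GGGCGG on either strand) and E-boxes (CANNTG).
RET outer start: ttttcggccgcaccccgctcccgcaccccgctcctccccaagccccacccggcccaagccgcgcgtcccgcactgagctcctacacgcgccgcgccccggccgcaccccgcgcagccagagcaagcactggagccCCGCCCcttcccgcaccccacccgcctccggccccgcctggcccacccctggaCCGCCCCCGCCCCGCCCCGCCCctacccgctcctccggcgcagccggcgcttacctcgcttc
RET inner start: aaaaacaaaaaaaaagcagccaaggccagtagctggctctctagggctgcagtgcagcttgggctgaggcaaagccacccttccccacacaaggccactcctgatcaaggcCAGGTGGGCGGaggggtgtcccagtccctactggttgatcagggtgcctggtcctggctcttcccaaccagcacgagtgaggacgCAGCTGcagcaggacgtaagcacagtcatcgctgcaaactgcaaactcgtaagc
GFRA1 outer start: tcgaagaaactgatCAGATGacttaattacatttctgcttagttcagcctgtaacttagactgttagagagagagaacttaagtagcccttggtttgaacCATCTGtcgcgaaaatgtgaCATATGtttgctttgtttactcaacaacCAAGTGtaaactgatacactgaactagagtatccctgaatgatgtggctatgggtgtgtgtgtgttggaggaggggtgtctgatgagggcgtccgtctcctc
GDNF outer start: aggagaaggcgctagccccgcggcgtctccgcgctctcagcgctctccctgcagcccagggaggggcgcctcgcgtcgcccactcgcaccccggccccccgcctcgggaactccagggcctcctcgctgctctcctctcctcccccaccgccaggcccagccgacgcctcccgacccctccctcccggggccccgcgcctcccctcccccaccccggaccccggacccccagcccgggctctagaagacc
GFRA3 start: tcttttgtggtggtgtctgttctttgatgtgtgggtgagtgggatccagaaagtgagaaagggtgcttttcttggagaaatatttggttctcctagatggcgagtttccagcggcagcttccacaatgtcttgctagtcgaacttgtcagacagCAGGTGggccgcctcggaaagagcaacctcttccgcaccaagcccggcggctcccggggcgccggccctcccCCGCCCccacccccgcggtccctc

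The RET outer start was 79.6% G and C with 5 GC boxes, and the GDNF outer start was 78.0% G and C with 0 GC boxes. The GFRA1 outer start was 43.2% G and C with 4 E-boxes and 0 GC boxes. The RET inner start, at 58.0% G and C, held 1 GC box and 2 E-boxes, the first of which shares a base with the GC box. The GFRA3 start had 59.2% G and C, and the median over 35116 promoters was 58.0%. Among those promoters 42.6% held a GC box and 61.8% an E-box. None of the 5 printed stretches held an AP-1 site (TGANTCA, in 6.57% of promoters), a cAMP response element (TGACGTCA, in 1.65%) or an NR4A monomer site (AAAGGTCA, in 1.05%), each searched on both strands. A match of letters is a description and not a site of binding. Promoter sequences were matched for 6 of the 7 genes.

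The lists differed mainly in length. They held 53063 to 248900 regions in the stressed and 32828 to 159902 in the vehicle libraries, and the reads behind them are not given. The uniform background that the authors' peak caller used, recovered from the deposited fold enrichments, ran from 0.816 to 5.99 fragments in the stressed and from 0.492 to 1.43 in the vehicle libraries, which gives relative depth. Every list was therefore shortened to its 32828 strongest regions by −log10 p. Within such an equal-size list each region was ranked by its fold enrichment, with 1 as the strongest. Region width still followed depth, with a median of 484 to 1450 bp in stressed and 319 to 868 bp in vehicle lists, so covered length moved with it. Cells of different kinds in a culture and the opening per cell cannot be told apart in these bulk libraries.

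RET lies at chr10:43077069-43130351 on the plus strand and has 2 annotated starts. The outer start had a region in every library, with ranks of 14554.5, 7955.5, 16863.5 and 10159 in stressed 6, 7, 8 and 9 and of 16844.5, 21867 and 28602 in vehicle 6, 7 and 8. Stressed ranks were the stronger ones in each of differentiations 6, 7 and 8, and the treatments overlapped by the narrow gap between stressed 8 and vehicle 6. The mean difference in log2 rank was -0.89, where a negative value means stronger in the stressed libraries. It ranged from -1.08 to -0.69 with any 1 library left out, and without stressed 8 or without vehicle 6 the treatments no longer overlapped. Expressed as enrichment over the recovered background, the same regions stood at 22.0, 18.0, 12.3 and 12.7 in the stressed and at 18.3, 11.4 and 16.0 in the vehicle libraries, which overlap. Across all genes with a region within 1000 bp of either gene end in at least 1 library (14055), the ranks did not overlap, with stressed stronger, for 9.65%, and with vehicle stronger for 1.57%. Stressed ranks were the stronger in all 3 shared differentiations for 23.8% of these genes and vehicle ranks for 5.23%.

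The inner RET start, 28.2 kb into the gene at the centre of its region, held the stronger region of the 2 starts in every library. Its ranks were 4910.5, 2866.5, 3075.5 and 5026.5 in stressed 6, 7, 8 and 9, and 6868.5, 5560.5 and 4686.5 in vehicle 6, 7 and 8. Only vehicle 8 fell among the stressed values in rank. Enrichment over the recovered background was 39.9, 28.2, 25.7 and 17.3 in the stressed and 30.5, 22.9 and 46.0 in the vehicle libraries. On that scale the treatments overlapped, with vehicle 8 the highest. The summit of this region lay 463 to 791 bp downstream of the inner start in the 7 libraries, so its peak of signal is not in the printed bases. At the outer start the summit lay between 314 bp upstream and 191 bp downstream.

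The RET window held 18 consensus regions (merged over the equal-size lists), of which 6 were present in all 7 libraries. That is 3.91 such regions per 100 kb, a density above that of 96.1% of protein-coding genes, whose median was 0.885. Coverage of the RET window, as a percentile among those genes, was 98.4, 99.5, 96.5 and 97.5 in stressed 6, 7, 8 and 9 and 98.5, 96.5 and 97.2 in vehicle 6, 7 and 8. The RET neighbourhood was thus among the most accessible in every library of either treatment. Covered length was 17.7, 30.8, 8.97 and 13.2 kb in the stressed and 9.11, 5.94 and 13.9 kb in the vehicle libraries, a difference of means of 8.02 kb that was 3.65 kb without stressed 7. Its groups overlapped, and with every region cut to 100 bp on each side of its summit the difference was 0.05 kb. Across 18915 windows, covered length did not overlap for 6.43% with stressed more and 0.0952% with vehicle more, with 1.92% at the smallest exact permutation p and 0 past adjustment, and the former count of 1217 became 9665 without vehicle 8 and 4483 without stressed 8.

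**Figure D1:**
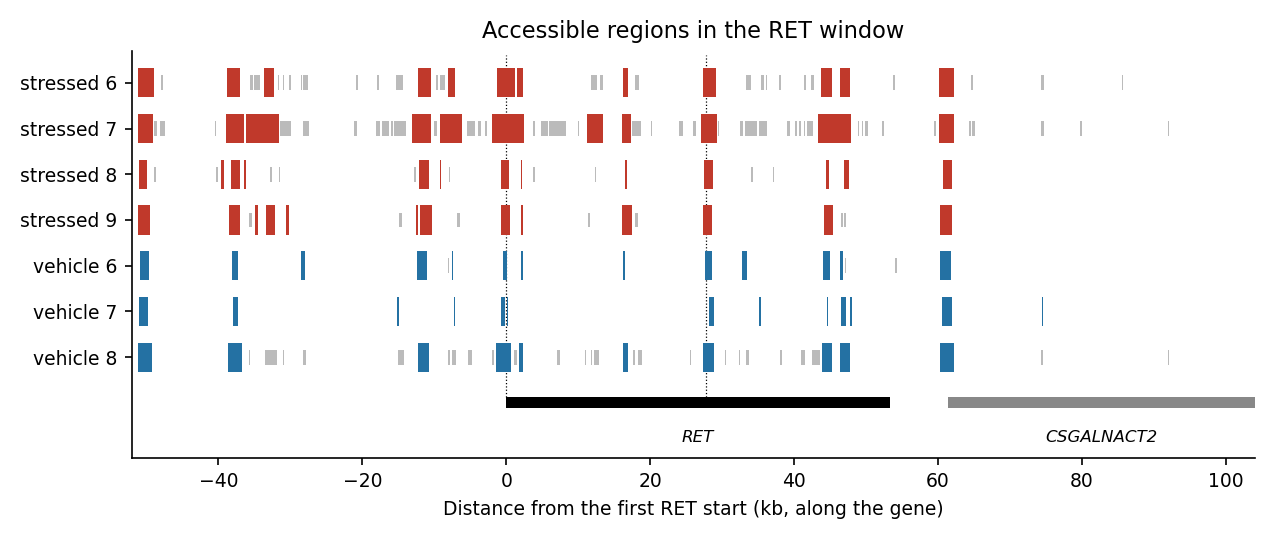
Accessible regions in the RET window by library, as horizontal distance in kb from the outer RET start. Tall coloured bars are regions of the equal-size lists (red stressed, blue vehicle), low grey bars are regions found only in the deposited lists, dotted lines are the 2 RET starts and the bottom bars are genes. The same 6 positions are filled in all 7 libraries, and bars are widest in stressed 7.

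Of the 6 shared RET regions, 1 had ranks that did not overlap between treatments, with vehicle stronger. Over all 14331 regions shared by the 7 libraries, ranks did not overlap for 7.62% with stressed stronger and 5.53% with vehicle stronger. That RET region lay within the gene at chr10:43120354-43125119, 45.7 kb from the outer start, with ranks of 18363, 13901, 16863.5 and 24254.5 in stressed 6, 7, 8 and 9 and of 10426.5, 9534.5 and 10725.5 in vehicle 6, 7 and 8. All 3 vehicle ranks were stronger than all 4 stressed ranks. Its enrichment over background was 18.8, 12.7, 12.3 and 8.01 in the stressed and 24.4, 18.0 and 30.7 in the vehicle libraries, where stressed 6 and vehicle 7 overlap. The region upstream at chr10:43025886-43028134, at -50.1 kb from the start, had stressed ranks of 4098.5, 4824, 4744 and 1810 and vehicle ranks of 7839, 6601 and 4686.5. Only vehicle 8 overlapped the stressed libraries there. The region 61.1 kb downstream lies at the boundary of CSGALNACT2 nearer to RET, a chondroitin sulphate enzyme gene whose body runs on from there. It ranked 1305.5 to 5491.5 in the stressed and 4349.5 to 9013 in the vehicle libraries.

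One RET region, at chr10:43040661-43045474 and 34.0 kb before the start, was present in 4 stressed and 0 vehicle equal-size lists. Its ranks were 28359.5, 23726.5, 26013 and 24254.5, near the weak end of the lists. The piece in stressed 8, 221 bp wide, met those of the other stressed libraries only through the 4613 bp region of stressed 7. The deposited list of vehicle 8 held a region at chr10:43043607-43045212 with an enrichment over background of 13.3, beside 13.8 in stressed 6, 8.67 in stressed 7 and 8.01 in stressed 9. The absence in that vehicle library thus came with the shortening of its list. Of 62507 consensus regions in all, 0.781% were in 4 stressed and 0 vehicle lists and 0.370% in 0 stressed and 3 vehicle lists, which are together the 1.15% with an unadjusted Fisher's exact p under 0.05. None passed after adjustment.

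Of the genes other than these 7, those whose gene-end ranks most resembled RET over the 7 libraries were SCARB1, FBXO28, FOXJ3, FAM149A and SNTB1, with mean absolute differences of 0.18, 0.18, 0.19, 0.20 and 0.21 in log2 rank. These are values over 7 libraries that share depth and cell line.

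GFRA1, the co-receptor that prefers GDNF, lies at chr10:116056925-116274705 on the minus strand and carried the strongest gene-end region of the 7 genes in 7 of 7 libraries. Its ranks were 3670, 2498, 3075.5 and 2018 in stressed 6, 7, 8 and 9, and 1435, 1499.5 and 490 in vehicle 6, 7 and 8. Every vehicle rank was stronger than every stressed rank, and GFRA1 was the 1 gene of the 7 in which gene-end ranks did not overlap between treatments, beside 1.57% of all genes with vehicle stronger and 9.65% with stressed stronger. The difference in log2 rank was 1.43, and it was 0.90 without vehicle 8. The order was the reverse of the narrow one at the RET outer start. Fold enrichments were 31.1, 25.4, 12.1 and 14.4 in the stressed and 20.1, 14.3 and 53.8 in the vehicle libraries, which overlap. Enrichment over background was 45.0, 29.5, 25.7 and 23.4 in the stressed and 58.9, 36.0 and 90.7 in the vehicle libraries, so vehicle 7 fell below stressed 6 on that scale. Where lists were left at unequal length, as deposited or cut at a −log10 q of 5, ranks were divided by list length. On that scale the treatments overlapped, at log2 differences of 0.70 and 0.79. In lists cut at equal enrichment over background, also of unequal length, the divided ranks did not overlap, at 1.93. Ranks also did not overlap in equal lists of 16414 regions or with any 1 library left out.

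The GFRA1 region was strongest at the outer start itself. Its summit lay between 3 bp upstream and 113 bp downstream of that start in every library, close to the end of the low-GC stretch printed above. The strongest region was 2241 to 5445 bp wide in the stressed and 658 to 3201 bp wide in the vehicle libraries. In stressed 6, 7 and 9 and in vehicle 8 it ran on over the next 2 starts as 1 region, whereas in stressed 8, vehicle 6 and vehicle 7 it ended before them. The median width of whole lists moved the same way, and its part in this difference was not tested.

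**Figure D2:**
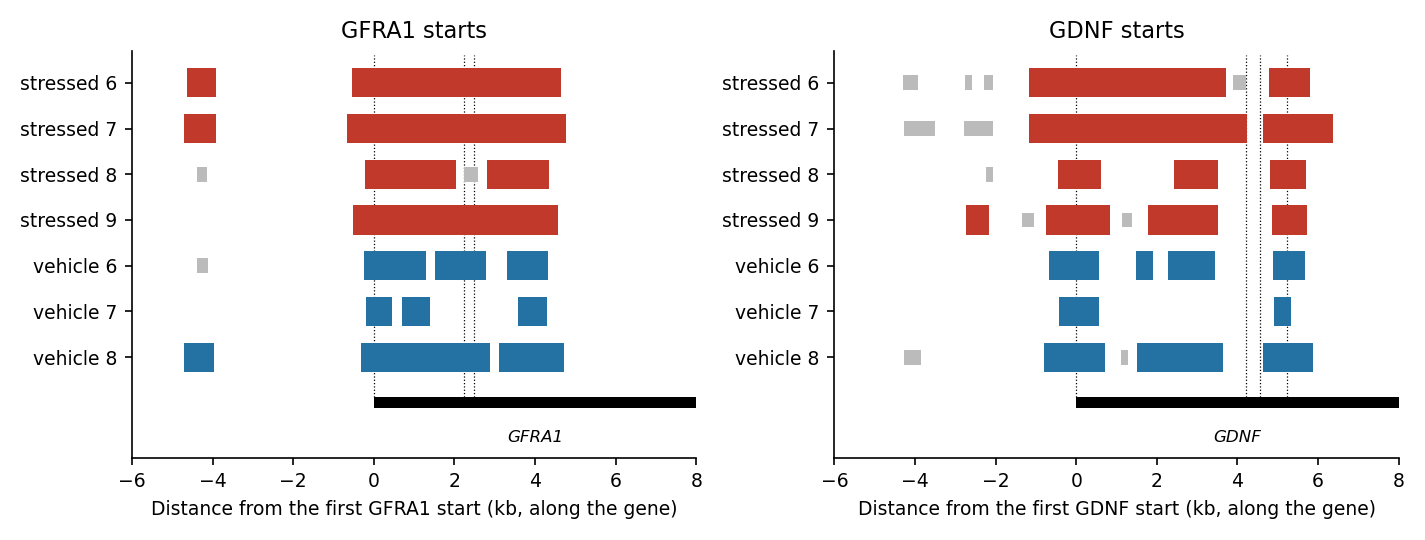
Regions around the GFRA1 and GDNF starts by library, as distance in kb from the outer start of each gene. Bars and colours are as in the map of the RET window, with dotted lines at the annotated starts. The outer start of both genes is covered in all 7 libraries, and an unbroken GFRA1 region spans the 3 starts shown in stressed 6, 7 and 9 and in vehicle 8.

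Beyond its start, GFRA1 showed little that was shared. Of its 20 consensus regions 15 lay within the gene and 2 were present in all 7 libraries. The second of these, at chr10:116183335-116186928, 89.6 kb into the gene, ranked 17723, 13138.5, 4744 and 28420 in the stressed and 12101.5, 6601 and 7021.5 in the vehicle libraries. Stressed 8 had the strongest and stressed 9 the weakest of these values, so the treatments overlapped. Coverage of the GFRA1 window stood at percentiles of 62.1 to 85.9 in the stressed and 55.6 to 83.7 in the vehicle libraries.

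GFRA2, GFRA3 and GFRA4 had few or no regions at their gene ends. GFRA2, the neurturin co-receptor (chr8:21690398-21812345), had no region within 1000 bp of a gene end in any equal-size list, as did 29.6% of protein-coding genes. Its window held 2 consensus regions, both within the gene, and its coverage stood at percentiles of 5.69 to 28.8 over the 7 libraries. The equal-size lists of stressed 8 and vehicle 7 held no region there. The deposited list of stressed 8 held 5 in that window, and that of vehicle 7 held none. GFRA3, the artemin co-receptor (chr5:138252380-138274621), had a start region in vehicle 7 alone, at rank 27312.5 and 194 bp wide. In the deposited lists a region at that position was found in 3 stressed and 2 vehicle libraries, so it was mostly too weak for the equal-size lists. A region 32.6 kb downstream of the GFRA3 start was present in all 7, at ranks of 10769.5 to 20973.5 in the stressed and 14184.5 to 21867 in the vehicle libraries.

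GFRA4, the persephin co-receptor (chr20:3659248-3663399), had no region at its start in the equal-size lists. Its far end had one in stressed 7, 8 and 9, at ranks of 31154.5, 31055 and 20973.5, and in vehicle 7 and vehicle 8, at 9534.5 and 14391.5. Stressed 6 and vehicle 6 had none, so presence did not separate the treatments although the 2 vehicle ranks were the stronger ones. A region at chr20:3675818-3679069, within ADAM33, a metalloprotease gene, was present in 4 stressed and 0 vehicle equal-size lists, at ranks of 17127, 19889.5, 31055 and 14277. The deposited list of 1 vehicle library held a region there too.

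**Figure D3:**
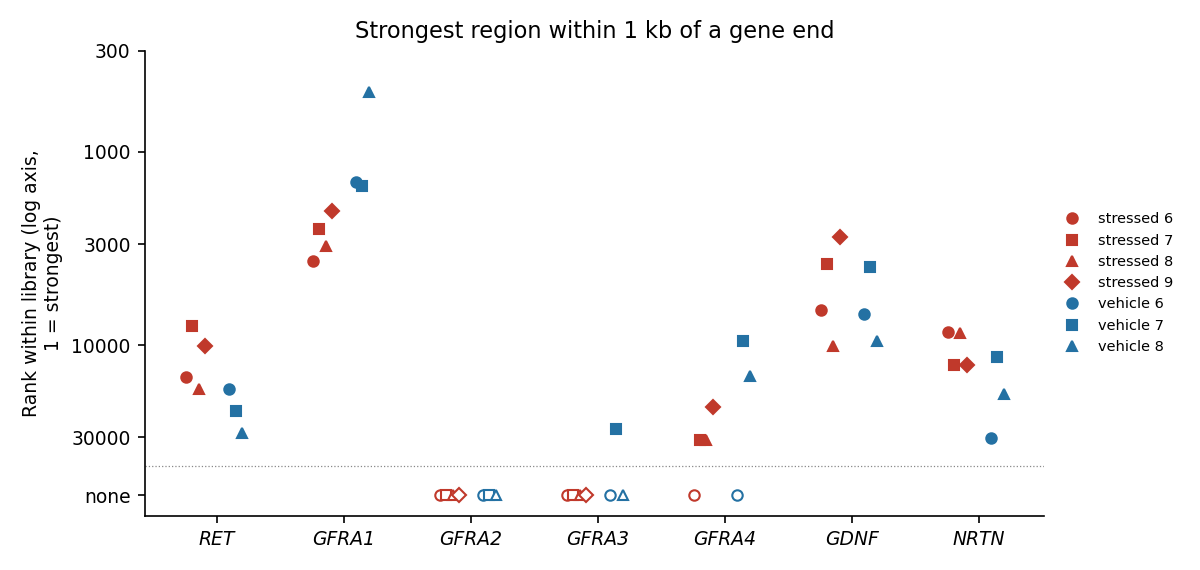
Rank of the strongest region within 1000 bp of either gene end, for each of the 7 genes and each library, on a log axis with stronger ranks at the top. Open symbols in the row marked none are libraries without such a region in the equal-size list. GFRA1 lies highest, with its 3 vehicle symbols above its 4 stressed ones, and GFRA2 has no region in any library.

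GDNF, the ligand also present in the medium, lies at chr5:37812677-37840041 on the minus strand. Its outer start had ranks of 6570, 3820, 10105.5 and 2755 in stressed 6, 7, 8 and 9 and of 6868.5, 3956 and 9540 in vehicle 6, 7 and 8. The vehicle values fell inside the range of the stressed values, and libraries of the same differentiation were close to each other. The summit lay 113 to 318 bp upstream of the outer start, inside the printed bases in stressed 8, stressed 9, vehicle 6 and vehicle 8. A second region in all 7 libraries lay at the innermost of the 4 GDNF starts, at ranks of 9840.5 to 16116 in the stressed and 9534.5 to 20228 in the vehicle libraries. The window of GDNF held 10 consensus regions and the end of no other gene, and it was covered at percentiles of 75.1 to 91.6 in the stressed and 81.8 to 95.2 in the vehicle libraries.

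NRTN, which encodes neurturin, lies at chr19:5805067-5828324 on the plus strand. A region near its start was found in 4 stressed and 2 vehicle libraries, at ranks of 8606.5, 16312.5, 16863.5 and 12696 in stressed 6, 7, 8 and 9 and of 14023.5 and 20797 in vehicle 7 and vehicle 8. The summit was displaced, 857 to 953 bp upstream of the start in those 6 libraries. Its far end, which is shared with an end of the fucosyltransferase gene FUT6, had a region in all 7, at ranks of 14091.5, 12662, 8669 and 14277 in the stressed and 30213, 11514 and 17998 in the vehicle libraries. Vehicle 7 was among the stressed values at both positions. The NRTN window was covered over 5.50, 7.39, 3.63 and 3.97 kb in the stressed and 1.72, 2.11 and 3.51 kb in the vehicle libraries. Here the treatments did not overlap in length, with stressed 8 and vehicle 8 nearest to each other, but as percentiles among genes they did, at 74.8 to 82.3 in the stressed and 64.0 to 78.6 in the vehicle libraries. On the percentile scale 5.84% of windows did not overlap with stressed more and 8.91% with vehicle more, and the only one of these 7 among them was GFRA4, at 65.4 to 73.7 against 7.07 to 61.4. NRTN was the 1 gene of the 7 with more covered length in every stressed library, beside 6.43% of all windows. The treatments overlapped in this length with the lists as deposited, with a −log10 q of at least 5, at equal enrichment over background and with flanks of 20 kb or 100 kb.

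**Figure D4:**
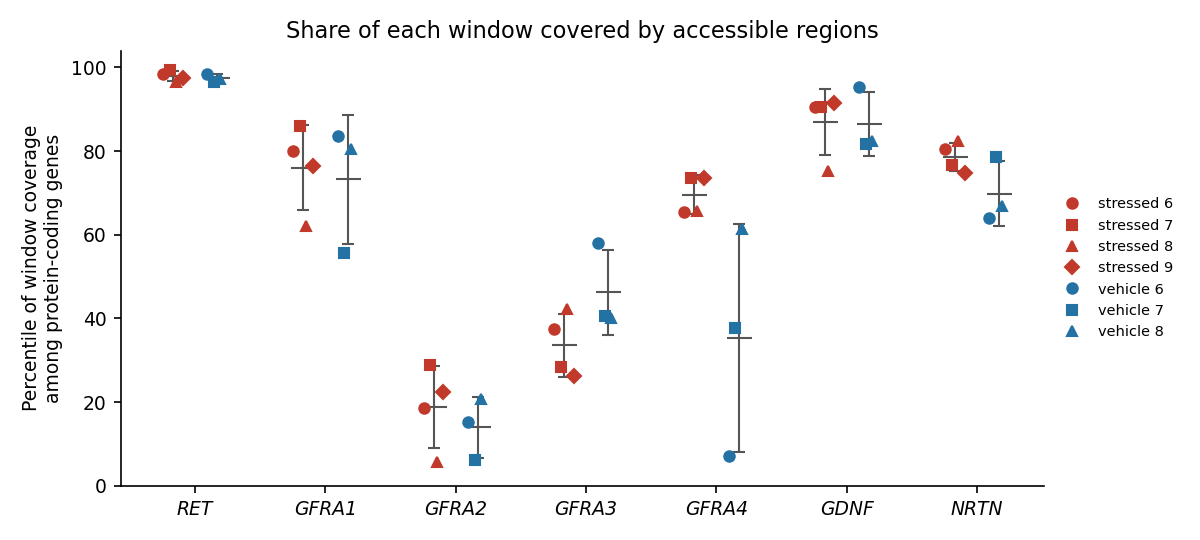
Coverage of each gene's window by equal-size-list regions, as a percentile among protein-coding genes, by library. Points are libraries and the bars are the mean and SD of each treatment (n = 4 stressed, n = 3 vehicle). RET lies above 96 in every library, GFRA2 below 29.

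By median rank over the 7 libraries the gene ends ordered as GFRA1 (2018), GDNF (6570), NRTN (12662), RET (16844.5) and GFRA4 (31055), with GFRA3 in 1 library and GFRA2 in none. This order covers only the outer ends of each gene. It leaves out the stronger inner RET start, at ranks of 2866.5 to 6868.5. The GFRA4 values come from its far end, as do many NRTN values, at the end shared with FUT6. The ranges of GFRA1 (490 to 3670) and GDNF (2755 to 10105.5) overlapped, as did those of GDNF and NRTN (8606.5 to 30213), of NRTN and RET (7955.5 to 28602), and of RET and GFRA4. The number of genes of the 7 with a gene-end region was 4, 5, 5 and 5 in the stressed and 4, 6 and 5 in the vehicle libraries, or 4.75 ± 0.5 (SD, n = 4) against 5 ± 1 (SD, n = 3). A gene end was open in a larger share of stressed libraries for GFRA4 and of vehicle libraries for GFRA3, against 27.5% and 6.48% of genes. None of the 7 was open in 4 stressed and 0 vehicle libraries (0.818% of genes) or in 0 stressed and 3 vehicle libraries (0.0213%). The 7 windows together held 65 consensus regions, of which 15 were in all 7 libraries, 2 in 4 stressed and 0 vehicle lists, and 0 in 0 stressed and 3 vehicle lists. Counting absence as the weakest rank, 2 had stressed and 2 had vehicle ranks stronger without overlap, against 3.86% and 2.74% of all consensus regions. Over all 62507 consensus regions 22.9% were in all 7.

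**Figure D5:**
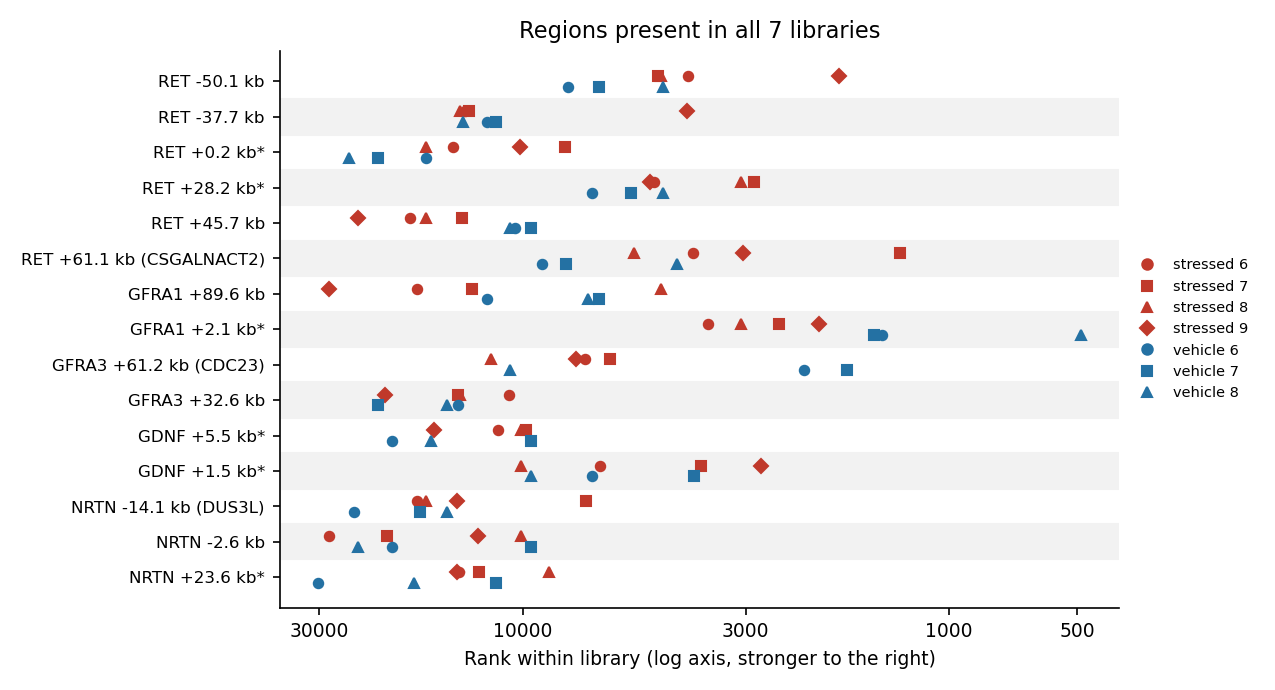
Ranks of the 15 regions present in all 7 libraries, labelled by gene and by distance in kb from its outer start. Each symbol is a library, the axis is logarithmic with stronger ranks to the right, asterisks mark regions at a start or end of the named gene, and another gene in brackets has its end there. Vehicle symbols lie to the right of all stressed ones at the GFRA1 start and at the RET region 45.7 kb into the gene.

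Other genes of the pathway were taken from a list of 46. Of these, 40 had a gene-end region in at least 1 library and 28 in all 7, against 46.5% of all protein-coding genes. For 5 the ranks did not overlap with stressed stronger and for 0 with vehicle stronger, beside 9.65% and 1.57% of all genes. The median difference in log2 rank was -0.25 over the list and -0.23 over all genes. An exact permutation test over the 35 assignments of the labels cannot go below p = 0.0286, and after Benjamini-Hochberg adjustment over 14055 genes it called 0 genes, with 769 (5.47%) at that smallest unadjusted p. Differentiations are the replicates of these tests.

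SHC1, an adaptor that binds phosphorylated RET, ranked 2277, 3107.5, 2652 and 2240.5 in stressed 6, 7, 8 and 9 and 7839, 4686 and 3758 in vehicle 6, 7 and 8. All stressed values were stronger (two-sided exact permutation p = 0.0286, adjusted 0.514). SORL1, a sorting receptor that binds GDNF and GFRA1, ranked 6578.5 to 8669 in the stressed and 8859 to 20228 in the vehicle libraries (exact permutation p = 0.0286). For GRB10, an adaptor that binds RET, the ranks were 8198.5 to 14554.5 in the stressed libraries, 16844.5 in vehicle 6 and 25556.5 in vehicle 8, and vehicle 7 had no region (exact permutation p = 0.0286). NEDD4, a ubiquitin ligase, ranked 2240.5 to 6928.5 against 7907 to 12101.5 (exact permutation p = 0.0571). GRB2, the adaptor that links receptors to RAS, had a region in 4 stressed and 0 vehicle libraries, as 0.818% of genes did. Its ranks ran from 11856.5 to 32326 (exact permutation p = 0.0571). The adjusted p was 0.514 for all 5 of these genes. They are named here because their ranks did not overlap between treatments. Their unadjusted p-values largely follow from that choice and are no separate support.

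By role, of 25 adaptors and signalling genes, a gene-end region was present at 21, 24, 21 and 21 in the stressed and 18, 18 and 20 in the vehicle libraries. Of 6 feedback and target genes, 5 or 6 had one in every library. Of 7 transcription factors known to act on RET, 4 had one in each library. NR4A2, NKX2-1 and RARB had it in all 7, while SOX10 and HOXB5 had none in any. Of 8 other ligands and co-receptors 4 to 6 had one. Over all protein-coding genes the number with a gene-end region was 12082 to 12979 in the stressed and 10776 to 11772 in the vehicle libraries.

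The neurotrophins and their receptors, another family of survival factors, had a gene-end region for 5, 6, 6 and 7 of 8 genes in the stressed and for 4, 2 and 4 in the vehicle libraries. NTRK3, the receptor of neurotrophin-3, had one in 3 stressed and 0 vehicle libraries, at ranks of 23726.5, 20596 and 11329.5. Both contrasts run in the direction of the whole lists, where 12082 to 12979 genes were open in stressed and 10776 to 11772 in vehicle libraries. A larger share of stressed libraries was open for 27.5% of 14055 genes, and a larger share of vehicle libraries for 6.48%. Whether neurotrophin genes differ from other genes in this was not tested. No gene of the neurotrophin list had ranks that did not overlap between treatments. The median difference in log2 rank was -0.26, beside -0.23 over all genes.

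The labelled cell type was checked against its markers. Of 12 dopaminergic genes, 5 had a gene-end region in each library, though not the same 5, since SLC6A3 and KCNJ6 had none in vehicle 6 and LMX1A and FOXA2 had one there alone. The genes TH, SLC18A2, DDC, LMX1B and ALDH1A1, which include the enzymes and the vesicular transporter of dopamine, had none in any. PITX3 ranks did not overlap, with stressed stronger, as for 9.65% of all genes with a gene-end region, beside 1.57% with vehicle stronger. Of 8 neuronal markers, 6 or 7 had a gene-end region per library, and SNAP25 ranks also did not overlap, with stressed stronger. Of 8 neural crest and Schwann cell markers, the other cells known for RET or GFRA genes, 3 or 4 had one. ISL1, also a gene of other neurons, and HAND2 had one in all 7 libraries, ISL1 at ranks of 648.5 to 2276, FOXD3 had one in 4 stressed and 2 vehicle libraries with stressed stronger and no overlap (exact permutation p = 0.0286, adjusted 0.514), and PHOX2A and SOX10 had none. Of 7 glial markers 2 to 4 had one in the stressed and 1 to 3 in the vehicle libraries, with OLIG2 in all 7 libraries, at ranks of 1945.5 to 14023.5, MBP in 4 stressed and 2 vehicle libraries, and GFAP, S100B and ALDH1L1 at none. Of 7 mesenchymal and endothelial markers it was 3 or 4 in the stressed and 1 or 2 in the vehicle libraries, with PDGFRB in 4 stressed and 0 vehicle lists, COL1A1 in 3 and 0, TWIST1 in all 7 libraries, PRRX1 in 4 and 2, and COL1A2, PECAM1 and CDH5 at none. The part of such cells in the values above was not tested. These markers were named after their values were seen, so the p-value of FOXD3 is no separate support.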

How the data were processed

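ATAC-seq libraries were analysed from the deposited peak lists, 1 per library, called separately and not on pooled samples. MACS2 is named per the file headers, and FastQC, Bowtie2, Picard and hg38 per the submitters' processing notes. The settings of the caller, and whether cut sites were shifted, are not given in those sources. Such a shift is a few bases, while caller settings would change the number and width of regions. For each peak the authors deposited its fold over background (a ratio, at the summit). They also deposited −log10 of the p-value and of the q-value, and a score that was not used.

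The 7 genes and all lists were chosen with earlier results of these data known. Peaks outside the autosomes and X were left out (29 to 54 per library). The deposited folds lie on a grid of (pileup + 1) over (background + 1), and at a tolerance of 0.02 100% gave a whole pileup, so the background was recovered. Ties in −log10 p were ordered by fold, width and position, and ties in rank were averaged. An absent gene end was given the rank after the last. Gene ends came from a RefSeq table on GRCh38.p14, and exons were not analysed here. Genes were compared by an exact permutation test on log2 rank or covered bases and consensus regions by Fisher's exact test (0 of 62507 at an adjusted p under 0.05, 719 unadjusted), each with Benjamini-Hochberg adjustment and never for the 7 genes. The rule for naming list genes took those whose ranks did not overlap, or with a gene end open in 3 or 4 stressed and no vehicle libraries, or in 2 or 3 vehicle and no stressed ones. Other marker and transcription factor genes were named after their values were seen. Some list genes are not reported here.

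The labels' differentiation numbers pair stressed with vehicle libraries. Deviations of same-numbered libraries correlated at -0.11, -0.0014 and -0.06 across genes. For stressed and vehicle libraries of different numbers the values ran from -0.14 to 0.27, so same-numbered libraries were not more alike. Python 3.11.15, numpy 2.4.6, pandas 2.3.3, scipy 1.17.1 and matplotlib 3.10.9 were used, and the functions were tested on simulated data.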

Additional observations from a re-analysis of the deposited data

Results flagged for a closer look

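In groups of 4 stressed libraries, 5 of 54 sets of values had a library far from the other 3, measured as its gap to the nearest value over the whole range. Chance flags about 1 in 20 such groups when values are independent and continuous. Many of these sets are region counts with ties or related measures of the same libraries, so that rate does not hold for them. At the RET region at -37.7 kb from the start, stressed 9 ranked 4126 while the other stressed libraries ranked 13384 to 14051.5. The GDNF window stood at a coverage percentile of 75.1 in stressed 8 and of 90.5 to 91.6 in the others. Stressed 8 also had 0 regions in the GFRA2 window where the others had 2, 6 in the GFRA4 window where they had 3, and 7 in the NRTN window where they had 5.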

How the results depend on the processing

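Over all results and alternatives 219 of 281 values stayed within 1 SD of the main one (counts within 1.5 times) and 62 moved. The SD was the larger of the 2 treatments' SDs between libraries, so a difference could vanish and still stay within it. The RET difference in covered length did so around summits, at 0.05 kb against 8.02 kb with an SD of 9.43 kb. The sign turned in 11 of the 281 values, whether or not they stayed within the SD. None of the 11 was a measure in which the treatments were separated in the main lists. They included the number of genes with a gene-end region (0.50 as deposited, 0.67 at the smaller list length, 1.08 with the q limit, 0.25 without vehicle 7) and the GDNF rank at equal enrichment (0.19). The others were covered length of GFRA4 at the smaller length (-0.19 kb), of GFRA3 at equal enrichment, around summits and without vehicle 7, and of GFRA1 and GDNF around summits (-0.25 and -0.17 kb). The RET outer-start difference (-0.89 in log2 rank) was -1.61 with the lists as deposited and -0.39 at equal enrichment over background, in both cases with ranks divided by the unequal list lengths. GFRA1 (1.43) ranged from 0.90 to 1.71 with 1 library left out, and RET covered length (8.02 kb) from 3.65 to 10.9 kb. The treatments' difference in how many of the 7 genes had a gene-end region (-0.25) was 1.08 at a −log10 q of at least 5, and -0.75 to 0.25 with 1 library left out. With the replicate block, pairing libraries by differentiation without stressed 9, the differences were -0.81 for RET, 1.58 for GFRA1 and 9.505 kb.

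The counts over all genes depended on how the lists were cut and on which libraries were kept. At the smaller equal length of 16414 they stayed within 1.5 times of the main counts. Gene-end ranks without overlap then numbered 923 with stressed stronger and 205 with vehicle stronger. For window coverage it was 1601 with stressed more and 23 with vehicle more. Gene-end ranks without overlap (1356 stressed stronger, 221 vehicle stronger) became 160 and 0 with deposited lists, 42 and 0 with the q limit of 5 above, 52 and 374 at equal enrichment, 1477 to 2326 and 301 to 517 with 1 library left out, and 3339 and 735 under the replicate block (same sign in all 3 pairs). The share of stressed-stronger calls thus turned at equal enrichment. Window coverage (1217 stressed more, 18 vehicle more) became 49 and 1, 16 and 0, and 50 and 39 in the same order of lists, 640 and 183 with 100 bp around summits, 1250 to 9665 and 28 to 89 with 1 library left out, and 1860 and 56 under the block. Consensus regions in 4 stressed and 0 vehicle lists (488) numbered 296 as deposited, 244 at the smaller length of 16414, 33 with the q limit, 46 at equal enrichment and 576 to 1442 with 1 library left out, of which 1442 was without vehicle 8. Those in 0 stressed and 3 vehicle lists (231) numbered 11 as deposited and 0 with the q limit. With 1 library left out they ranged from 269 to 857. The smaller length gave 245 of them, beside 244 in 4 stressed and 0 vehicle lists. Equal enrichment gave 291, beside 46. The excess of stressed-only regions in the main lists was thus absent at the smaller length and turned at equal enrichment. The cause of these shifts was not tested. For consensus regions no paired value was computed. Read totals are not known, so weak regions in the shallow libraries cannot be called absent.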
